A study of Mus musculus with 2 samples.

Results

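The intercalated disc is the specialised border at which heart muscle cells are joined end to end, and 10 genes of its adhesion junctions were examined in mouse hearts at embryonic day 11.5. They were chosen by name: Cdh2, Ctnnb1, Ctnna1 and Ctnna3 of the adherens junction, Dsp, Pkp2, Dsg2 and Dsc2 of the desmosome, Jup, which belongs to both, and the scaffold gene Tjp1. All 10 were found by gene identifier among the 43346 mouse genes of the tables. The study has 1 group, healthy B6NCrl hearts with male and female embryos pooled, and 2 total RNA libraries made from 10 ng of RNA each. Hearts of 109 embryos were pooled for replicate 1, whose expected counts summed to 37617442; the number pooled for replicate 2, with a sum of 27642765, is not given in the sources used here. There is no treated, mutant or later group, so no change between conditions was measured and no p-value is given. The libraries are recorded as separate biosamples under 1 donor identifier, and SDs (n = 2) measure only the spread between them.

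In an adherens junction, a classical cadherin reaches across the gap between cells while its tail holds an armadillo protein, beta-catenin or plakoglobin, and through it an alpha-catenin that binds actin. In a desmosome, the cadherins desmoglein and desmocollin are tied by plakoglobin and plakophilin to desmoplakin, which anchors desmin filaments. In the adult heart both kinds of junction mix at the disc, while in the embryo they are still spread along the cell borders, and mutations in human desmosomal genes cause arrhythmogenic cardiomyopathy. Whole hearts were measured, so these levels combine muscle with epicardium, endocardium and mesenchyme, and fewer cells of a type cannot be told apart from less RNA per cell. Markers of all 4 were present in both libraries, with 7 of 7 cardiomyocyte, 8 of 8 epicardial, 6 of 6 endothelial and 6 of 6 mesenchymal genes at 1 TPM or more.

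All 10 genes were expressed, at levels that spanned a wide range. TPM is the authors' abundance corrected for transcript length, so levels of different genes can be set side by side. Each member stood above 5 TPM in both libraries, a level that 43.7% of 21474 protein-coding genes reached, while 56.4% reached 1 TPM. The median of the members was 45.1 TPM in replicate 1 and 46.5 in replicate 2 (45.8 ± 0.958), against 15.7 and 16.2 TPM over the 12118 protein-coding genes at 1 TPM or more in both. Of the summed TPM of the members, the 4 desmosomal genes held 20.2% in replicate 1 and 19.4% in replicate 2 (19.8% ± 0.576), and Ctnnb1 alone held 34.4% ± 0.884.

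**Figure D1:**
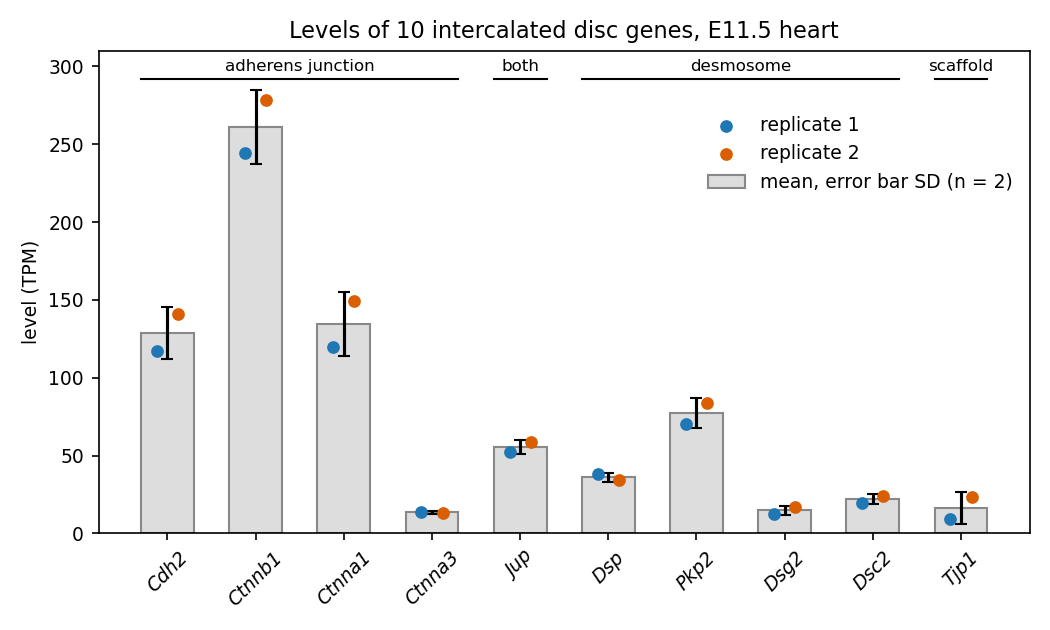
Levels of the 10 genes in TPM on a linear axis, with genes grouped by junction. Grey bars are means over the 2 libraries with SD error bars and points are the libraries; Ctnnb1 stands highest at 261 TPM, and the points of Tjp1 (8.93 and 23.4 TPM) are the farthest apart for their height.

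Genes of the adherens junction led the set. Ctnnb1, which encodes beta-catenin, the armadillo protein that also carries the Wnt signal to the nucleus, was at 244 TPM in replicate 1 and 278 in replicate 2 (261 ± 23.9), above 96.4% of expressed protein-coding genes. It lies on chromosome 9 from 120929216 to 120960507 (GRCm38, the assembly also called mm10). Ctnna1, the widely expressed alpha-E-catenin (chromosome 18, 35118859 to 35254779), followed with 120 and 149 TPM (134 ± 20.8). Cdh2, the N-cadherin on which adhesion between heart muscle cells depends (chromosome 18, 16588877 to 16809246), had 117 and 141 TPM (129 ± 16.7). Ctnnb1 exceeded both in either library. Ctnna1 exceeded Cdh2 1.02-fold in replicate 1 and 1.06-fold in replicate 2. Their values overlapped across the libraries, and their order was not resolved.

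Cdh2 was the highest of the 10 cadherin genes compared. Cdh11, a cadherin of mesenchymal cells, was next with 68.0 and 81.9 TPM (74.9 ± 9.79), so Cdh2 exceeded it 1.72-fold in either library. Cdh5, the cadherin of endothelium, had 30.7 and 34.1 TPM, and Cdh2 exceeded it 3.97-fold. Cdh1, the epithelial cadherin, had only 1.22 and 1.01 TPM, and Cdh2 exceeded it 116-fold (log2 ratio 6.85 ± 0.380). Of the 9 other cadherins 6 reached 1 TPM in both libraries, and Cdh13 (27.4 ± 0.707 TPM) and Cdh3 (16.3 ± 2.60) stood between Cdh5 and the low members. The values in the libraries did not overlap between Cdh2 and Cdh11, Cdh5 or Cdh1.

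The alpha-catenins were unequal. Ctnna3 encodes alpha-T-catenin, a form found mainly in heart and testis that also binds plakophilin-2, and its gene spans chromosome 10 from 63430098 to 65003667. It had the lowest mean of the members, with 14.0 TPM in replicate 1 and 12.95 in replicate 2 (13.5 ± 0.721), against 120 and 149 TPM for Ctnna1. Ctnna3 held 10.3% of alpha-catenin TPM in replicate 1 and 7.95% in replicate 2 (9.15% ± 1.70). The neuronal form Ctnna2 had 1.31 and 0.84 TPM, from 90 and 65 counts, and Ctnna1 exceeded it 127-fold. Part of the Ctnna3 signal did not lie in coding transcripts. Ctnna3-204, an annotated processed transcript of 3 exons inside the gene, took 38.6% of its TPM in replicate 1 and 32.6% in replicate 2. Nearly all of the rest was Ctnna3-202, the 18-exon coding form, at 8.48 TPM in both libraries. With coding transcripts alone, a choice made after these values were seen, Ctnna3 held 5.96% of alpha-catenin TPM.

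Ctnna3-202 begins at the second of the annotated starts, while Ctnna3-203, the coding form of the first start, was listed at 0 counts in both libraries. A further coding form, Ctnna3-201, begins at 63504037 and was also listed at 0 counts in both. By posterior mean TPM, Ctnna3-201 took 3.09% of the gene in replicate 1 and 1.45% in replicate 2, and Ctnna3-203 2.19% and 1.30%. The coding forms also differ at their far ends, so this division rests on the authors' model over whole transcripts and not on reads at the starts alone. The 250 bases before the first and the second start are shown because Ctnna3-203, listed at 0 counts, and Ctnna3-202 differ here. Use of the starts themselves was not measured. The stretches shown are from RefSeq (GRCm38.p6, plus strand), at chr10:63429848-63430097 and chr10:63457261-63457510, and capitals mark matches to the motifs named after them.
Before the first start (Ctnna3-203): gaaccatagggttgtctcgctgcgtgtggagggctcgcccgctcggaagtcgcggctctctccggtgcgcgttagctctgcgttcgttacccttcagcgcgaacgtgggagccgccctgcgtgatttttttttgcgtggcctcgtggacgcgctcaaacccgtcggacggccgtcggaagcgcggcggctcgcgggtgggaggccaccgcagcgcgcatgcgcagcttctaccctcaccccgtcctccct
Before the second start (Ctnna3-202): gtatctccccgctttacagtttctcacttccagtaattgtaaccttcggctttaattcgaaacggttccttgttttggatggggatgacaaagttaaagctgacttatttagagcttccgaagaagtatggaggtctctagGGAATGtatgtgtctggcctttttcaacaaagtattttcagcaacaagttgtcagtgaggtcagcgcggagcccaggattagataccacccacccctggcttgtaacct

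The stretches differed in composition. The first had 67.6% G and C and 36 CG pairs, and the second 44.8% and 7 CG pairs, against a median of 52.4% G and C over the 32851 promoters in the table. Both strands were searched for the TATA box TATAAA, the M-CAT box CATTCC (read by TEAD factors in muscle genes), the GATA site AGATAA and the E-box CAGCTG. The first stretch held none of these letters. The second held 1 M-CAT match, read as GGAATG, from 109 to 104 bases before the RefSeq start at 63457511. Of all promoters in the table, 12.4% held the TATA box, 12.6% the M-CAT box, 9.99% the GATA site and 13% the E-box in a window of this length, and a match of letters is not evidence of a bound site. Among the other entries for members (Ctnnb1, Jup, Dsp and Tjp1), only a Ctnnb1 start at 120933578 held a match, to TATAAA, and a further Ctnna3 start at 63821055 held TATAAA and CAGCTG.

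Jup, which encodes plakoglobin, the armadillo protein shared by adherens junctions and desmosomes (chromosome 11, 100368958 to 100397763), had 52.1 TPM in replicate 1 and 58.8 in replicate 2 (55.5 ± 4.72). It thus stood well below its close relative Ctnnb1. Jup made up 17.6% and 17.5% of the summed TPM of the pair, a share that hardly differed between the libraries (17.5% ± 0.0915). Jup-201 held 93.1% ± 3.79 of the gene. The other catenin relatives were lower than Ctnnb1: Ctnnd1, which binds the cadherin tail near the membrane and controls cadherin turnover, led them at 55.3 ± 3.36 TPM, and 5 of these 7 genes reached 1 TPM in both libraries (median 13.5 ± 1.87).

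Among the desmosomal genes, the plaque proteins stood above the cadherins. Pkp2, plakophilin-2, an armadillo-repeat plaque protein (chromosome 16, 16213318 to 16272712), was the highest with 70.4 and 84.0 TPM (77.2 ± 9.64). Dsp, desmoplakin (chromosome 13, 38151294 to 38198577), had 38.1 and 34.1 TPM (36.1 ± 2.80). The desmosomal cadherins were lowest, Dsc2 (chromosome 18, 20030633 to 20059554) with 19.6 and 24.3 TPM (22.0 ± 3.33) and Dsg2 (chromosome 18, 20558074 to 20604521) with 12.7 and 16.9 TPM (14.8 ± 3.03). Pkp2 lay above Dsp, and Dsp above Dsc2, in every library. Dsc2 exceeded Dsg2 1.49-fold (log2 ratio 0.58 ± 0.078), and their values did not overlap. Pkp2 exceeded Dsp 2.13-fold per length, though Dsp, whose transcripts are the longest of the set, had more counts (9174.9 and 5893.8, against 5613 and 4745 for Pkp2).

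In the desmoglein and desmocollin families, the form known from heart and simple epithelia was present. The forms of stratified epithelia, such as skin, were at or near 0 in these families. Of the 12 other desmosomal genes, 1 reached 1 TPM in both libraries, and the median was 0.0675 ± 0.0177 TPM. That gene was Perp, a desmosomal membrane protein gene that also responds to p53, at 68.5 ± 11.2 TPM. Perp lay above Dsp, Dsc2 and Dsg2 in both libraries, so not every gene of this list was low. Dsg1a, Dsg1b and Dsc1 were listed at 0 counts in both libraries. At a limit of 3 counts per library, Dsg2 was at least 635-fold higher than Dsg1a, and Dsc2 at least 600-fold higher than Dsc1, in the library that gives the lower bound. Dsg3 had 10 and 7 counts and Dsc3 had 20 and 7, against 2038.7 and 1928.1 for Dsg2 and 2398 and 2135 for Dsc2. Dsg1c had 0 and 9 counts, and reads of the Dsg1 genes are uncertain because the copies are near-identical.

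The other plakophilins and plakins of stratified epithelia were also low. Pkp1 had 3 counts in replicate 1 and 1 in replicate 2, and Pkp3, found in most epithelia, had 25 and 24 counts (0.75 ± 0.141 TPM). Pkp2 exceeded Pkp3 103-fold. Pkp4, a more distant relative that also sits at adherens junctions, was at 26.8 and 24.5 TPM, and the log2 ratio of Pkp2 over it was 1.58 ± 0.271. The plakins of the skin envelope were low, Ppl at 0.92 and 1.15 TPM and Evpl at 0.19 and 0.23, so that Dsp exceeded them 35.0-fold and 172-fold. Of the surface ectoderm markers, 1 of 4 reached 1 TPM in both libraries, Krt14 at 1.14 ± 0.148 TPM, with Krt5 at 0.13 ± 0.0566 and Trp63 at 0.385 ± 0.00707. The 19 pairs set a member against a relative or against another member, as Pkp2 against Dsp, and were chosen with earlier results known. In 17 the first-named gene lay wholly above the second, and in 2 wholly below (Ctnna3 against Ctnna1, and Jup against Ctnnb1).

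**Figure D2:**
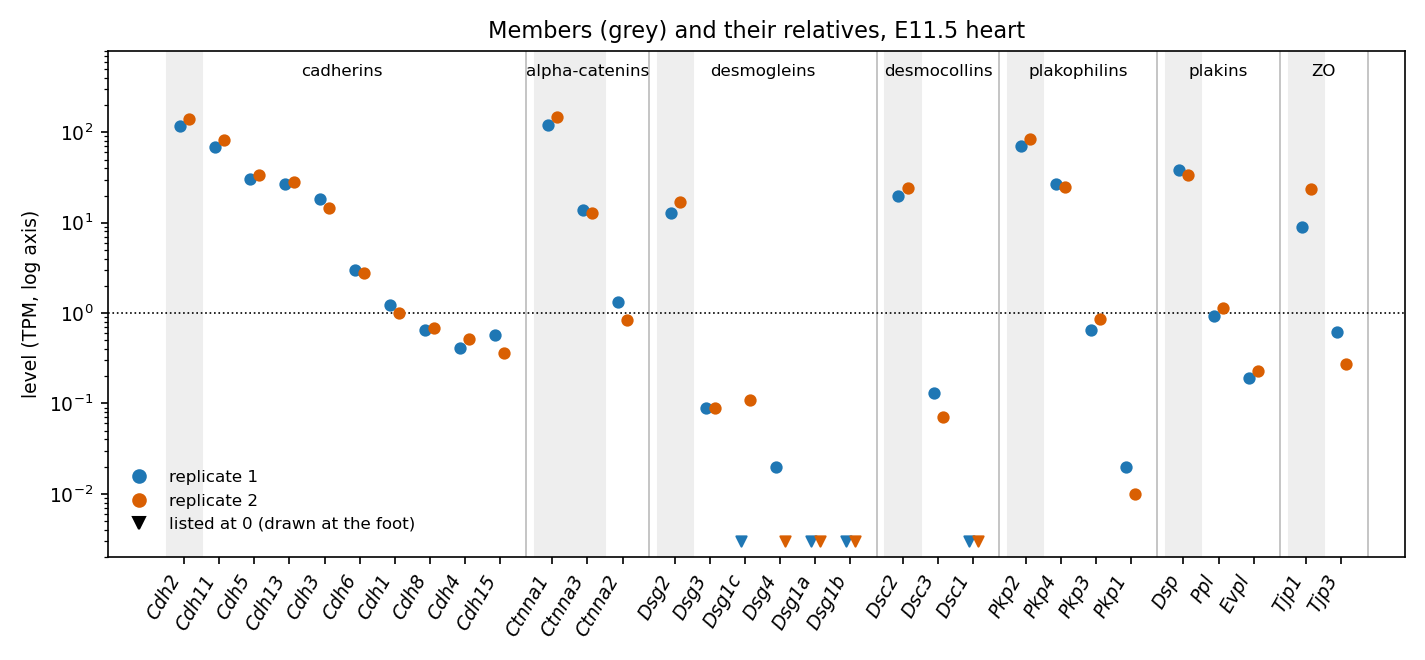
Levels in TPM on a log axis of the members (grey bands) and of their relatives, by family, with 1 point per library; triangles at the foot are genes listed at 0. In the desmoglein and desmocollin families only Dsg2 (12.7 and 16.9 TPM) and Dsc2 (19.6 and 24.3 TPM) lie above the dotted line at 1 TPM.

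Several members were divided among coding transcripts that differ in the protein. The authors' tables give the percent of each gene's TPM in each annotated transcript, and in 9 of 10 members 1 transcript led in either library. The exception was Dsp. Dsp-201 carries 8649 coding bases and Dsp-202 carries 6852, because Dsp-202 leaves exon 23 early and lacks 1797 bases, or 599 codons, of the central rod; these are the long and short desmoplakins I and II. Dsp-201 had 16.8 and 17.6 TPM, and Dsp-202 had 21.3 and 16.5 TPM. Dsp-201 thus made up 44.1% of the pair in replicate 1 and 51.5% in replicate 2 (47.8% ± 5.28), so neither form was clearly ahead.

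The letters at which these transcripts part are shown because they define the forms. Both share the last 30 bases up to the early end of the exon (chr13:38191829-38191858, plus strand, GENCODE M21 transcripts on GRCm38), and capitals mark what follows in each.
Dsp-201: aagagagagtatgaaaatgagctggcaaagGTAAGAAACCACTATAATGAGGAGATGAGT
Dsp-202: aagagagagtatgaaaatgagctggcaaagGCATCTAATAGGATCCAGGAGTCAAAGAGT
In Dsp-201 the exon runs on through letters that begin with GT, the usual start of an intron, and Dsp-202 jumps from this point to the first letters of the next exon. The annotation used here gives Dsp-201 a length of 9592 bases, against 9538 bases in the authors' files, so their models of this transcript are not identical.

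The division of Dsc2 differed less between the libraries. Dsc2-202, with 2706 coding bases, had 9.59 and 12.4 TPM, and Dsc2-201, with 2544, had 8.24 and 10.6 TPM. Dsc2-201 uses an added exon with 33 coding bases in place of the 195 that end Dsc2-202, the pattern of the short b and long a forms of desmocollins, which differ in the tail that binds plakoglobin. Dsc2-202 made up 53.8% of the pair in both libraries (53.8% ± 0.02). Cdh2 was divided between Cdh2-201, the full coding form of 16 exons (38.1 and 46.2 TPM), and Cdh2-202, a form of 15 exons that begins inside the gene and lacks the first coding exons (67.5 and 85.3 TPM). Cdh2-201 made up 35.6% ± 0.68 of this pair, and a retained-intron transcript took a further 8.25% ± 2.28 of the gene. Cdh2-201 and Cdh2-202 also differ in length (4843 and 3785 bases) and at their far ends. Their division thus rests on the authors' model over whole transcripts and not on reads of the first coding exons alone. The 2 main Ctnnb1 transcripts, Ctnnb1-201 (74.3 and 105 TPM) and Ctnnb1-214 (161 and 158 TPM), share all 2343 coding bases in the annotation used here. That annotation gives Ctnnb1-214 a length of 2702 bases, against 3422 bases in the authors' files, and Ctnna1-201 3733 bases, against 3698, so the authors' models of these transcripts differ from it. Ctnna1 has 1 annotated transcript, and Dsg2-201 and Pkp2-201 held 99.2% ± 0.233 and 93.3% ± 1.05 of their genes.

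**Figure D3:**
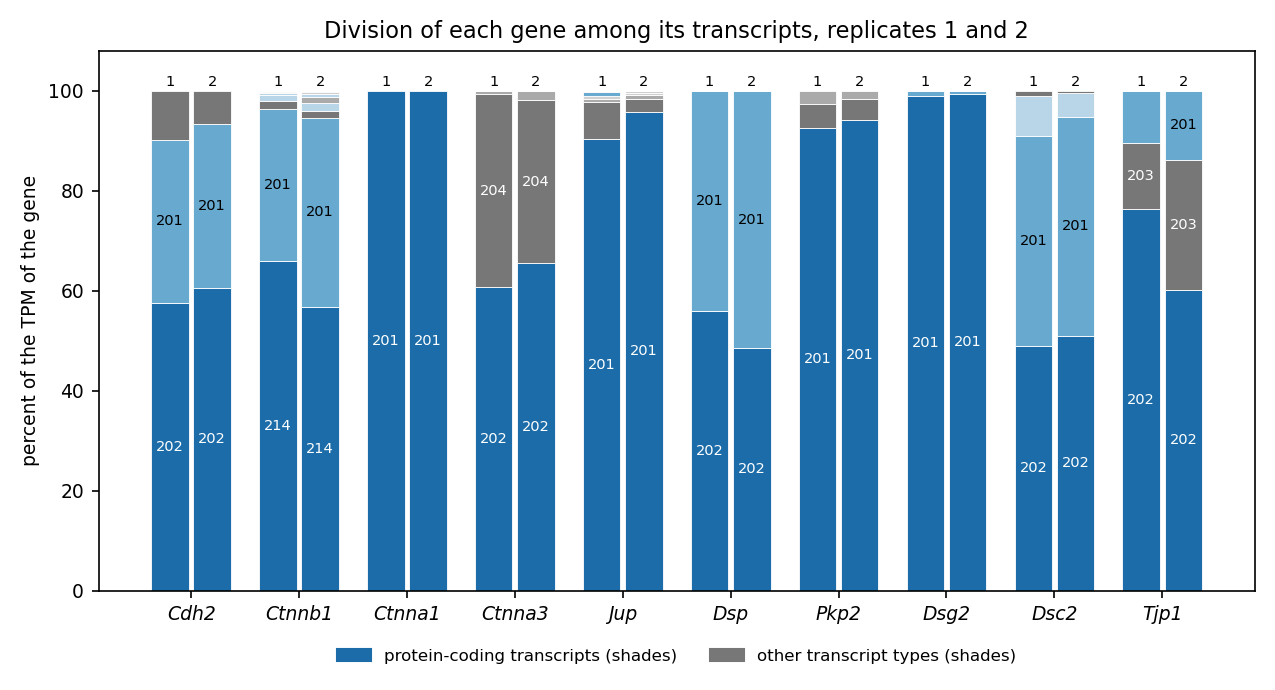
Percent of each gene's TPM in each annotated transcript, with replicate 1 left and replicate 2 right of each pair of bars, blue for protein-coding and grey for other transcript types; the numbers are the transcript suffixes. Dsp and Dsc2 are split between forms 201 and 202, and grey transcripts take 39.3% and 34.5% of Ctnna3 and 13.1% and 26.1% of Tjp1.

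Tjp1 was the member that differed most between the libraries. It encodes ZO-1, a scaffold that binds connexins, alpha-catenin and actin at the disc, and was at 8.93 TPM in replicate 1 and 23.4 in replicate 2 (16.2 ± 10.3). The authors' credibility intervals for the posterior mean TPM (level not given in the sources used here) were 8.26 to 10.2 and 21.2 to 25.4, and did not overlap. Its counts were 1534 and 2437 although replicate 2 was the shallower library, a TMM-scaled ratio of 2.18-fold. Its epithelial relative Tjp3 had 0.61 and 0.27 TPM, and Tjp1 lay above it in both libraries.

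All 3 expressed Tjp1 transcripts were higher in replicate 2. The leading coding form, Tjp1-202, had 6.82 TPM in replicate 1 and 14.1 in replicate 2, a ratio of 2.07-fold, and Tjp1-201 had 0.94 and 3.24 TPM, or 3.45-fold. The short processed transcript Tjp1-203, of 4 exons and 699 bases, had 1.17 and 6.11 TPM from 20.1 and 73.9 counts, or 5.22-fold. Its short length gives few reads a large TPM, and coding transcripts alone were at 7.76 and 17.3 TPM, or 2.23-fold. Tjp1-202 and Tjp1-201 differ by the 240-base exon 20, 80 codons known as the alpha domain of ZO-1, which Tjp1-202 has and Tjp1-201 lacks, while Tjp1-202 is 20 codons shorter at exon 27. It made up 87.9% of the pair in replicate 1 and 81.3% in replicate 2 (84.6% ± 4.66). That exon is shown because it sets the forms apart (chr7:65314093-65314332, minus strand, GENCODE M21 on GRCm38).
Tjp1-202 exon 20: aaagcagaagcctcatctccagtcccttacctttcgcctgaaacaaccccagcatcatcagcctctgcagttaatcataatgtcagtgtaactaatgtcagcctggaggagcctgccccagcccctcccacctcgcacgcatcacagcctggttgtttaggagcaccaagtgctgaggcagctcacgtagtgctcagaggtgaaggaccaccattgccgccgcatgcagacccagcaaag

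The other 9 members differed little between the libraries. On counts scaled by TMM, a factor that corrects for depth and composition, Tjp1 was the 1 member of 10 past 1.5-fold, while 14.5% of 16621 mouse genes with a summed count of 20 or more were past that fold. Among protein-coding genes at 1 TPM or more in both, a closer match for the members' levels, 3.94% were. Of the 16621 genes, 4.84% were past it with replicate 2 higher, as Tjp1 was, and 9.69% with replicate 1 higher, as no member was. Tjp1 was also past 2-fold, as 6.08% of these genes were. The difference of Tjp1 was larger than that of 95.1% of these genes. In the other members the ratio of replicate 2 over replicate 1 ran from 0.88-fold in Dsp to 1.30-fold in Dsg2. It was above 1 in 8 members, Dsp and Ctnna3 (0.902-fold) being the exceptions, with 54.6% of expressed protein-coding genes above 1. The exact 95% intervals of counting error are narrow at these counts, as for Ctnnb1 (1.10-fold, log2 ratio 0.11 to 0.16). None of the 10 included no difference, but the share of all genes for which this holds was not computed. It is therefore not read as a trait of the members. The intervals also take the TMM factor as exact, and that of Ctnna3 ended at a log2 ratio of -0.02. The authors' credibility intervals for Ctnna3, 13.2 to 14.8 TPM in replicate 1 and 11.9 to 13.7 TPM in replicate 2, overlapped.

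Cell-type markers moved less for the tissues that make up the heart than for liver and yolk sac endoderm. The summed TPM of 7 cardiomyocyte markers was 13731.2 in replicate 1 and 15273.5 in replicate 2, that of 8 epicardial markers 273 and 301, and that of 6 endothelial markers 355 and 409. The 6 markers of liver and yolk sac endoderm summed to 250 and 69.3 TPM, and all 6 were past 1.5-fold with replicate 1 higher, led by Afp at 102 and 16.3 TPM. The 7 foregut markers summed to 68.2 and 57.9 TPM. Most of that sum was Krt18 (31.6 and 29.8 TPM) and Krt8 (29.45 and 24.44 TPM), neither past 1.5-fold. Epcam (4.10 and 2.28 TPM), Nkx2-1 and Foxa2 were past 1.5-fold with replicate 1 higher. Nkx2-1 had 74 and 8 counts and Foxa2 30 and 5. Cdh1 (1.22 and 1.01 TPM) and Shh (0.08 and 0.10 TPM) were not past it. Erythroid markers summed to 38846.5 and 32319.9 TPM, and neuronal markers to 23.5 and 23.7. Of the members, Dsp (0.88-fold on TMM-scaled counts) and Ctnna3 (0.902-fold) were higher in replicate 1. The summed TPM of the endoderm, foregut and erythroid markers, a different measure, was also higher in replicate 1. Tjp1 and the other 7 were higher in replicate 2, among them Dsg2 (1.30-fold), Dsc2 (1.22-fold), Pkp2 (1.16-fold) and Jup (1.14-fold). The part of these cells in the members' differences was not tested.

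**Figure D4:**
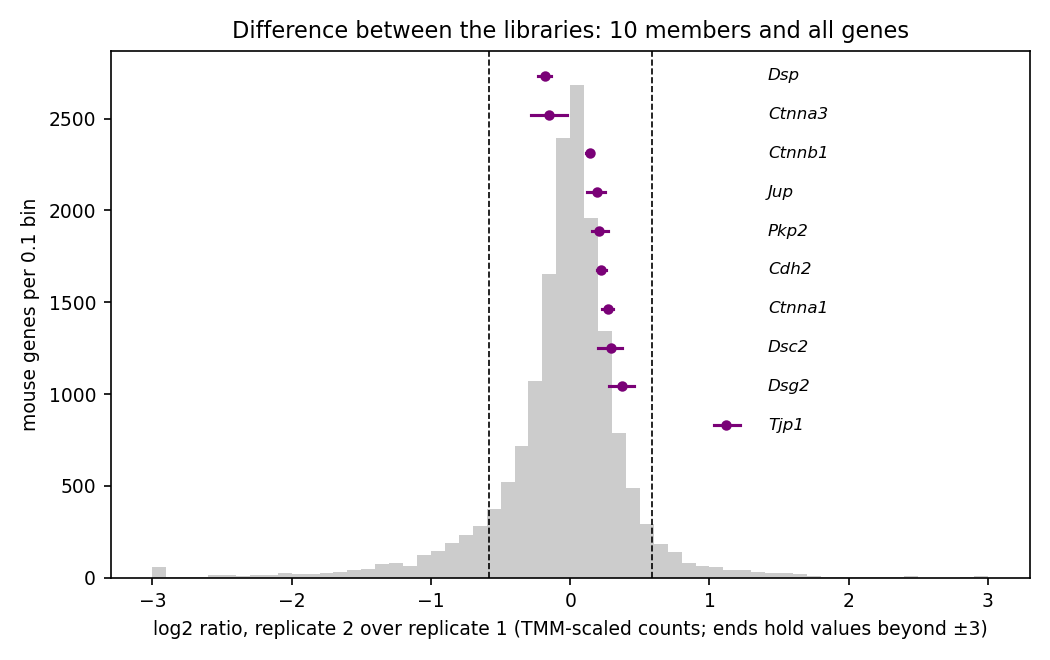
Grey columns count the 16621 mouse genes by the log2 ratio of replicate 2 over replicate 1 on TMM-scaled counts, and dashed lines mark 1.5-fold. Purple points are the 10 members with exact 95% intervals of counting error, at heights that only separate them; Tjp1 (1.12) lies outside the lines and the other members, from -0.18 to 0.37, inside.

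Most other genes of the intercalated disc were expressed as well. Of 12 further disc genes 11 reached 1 TPM in both libraries, with a median of 28.2 ± 6.95 TPM. Des, the intermediate filament protein that desmoplakin anchors, led at 333 ± 27.6 TPM, followed by the gap junction gene Gja1, a binding partner of ZO-1, at 195 ± 20.7. The gap junction gene Gjc1 had 42.9 ± 1.75 TPM and Ank3, a membrane-skeleton adaptor of the disc, 38.1 ± 3.93. Xirp2, a disc protein of the growing heart after birth, was at 0.08 and 0.09 TPM. Its relative Xirp1 (28.1 and 47.7 TPM) and the gap junction gene Gja5 (25.1 and 48.3 TPM) were past 1.5-fold between the libraries, with replicate 2 higher.

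The adherens junction linkers and nectins of the list were all present. Each of these 11 genes was at 1 TPM or more in both libraries, a level that 56.4% of protein-coding genes reached. Their median was 35.8 ± 3.52 TPM, and Nectin1 was lowest at 1.9 and 1.4 TPM. None was past 1.5-fold between the libraries, where 3.94% of protein-coding genes at 1 TPM or more in both were. Sorbs2, an adaptor of the cytoskeleton, was highest at 217 ± 24.4 TPM, followed by Lmo7 at 92.7 ± 1.65, the cell adhesion gene Nectin2 at 68.2 ± 7.22 and Afdn, which joins nectins to actin, at 67.4 ± 4.51. Vcl, the vinculin that alpha-catenin recruits under tension, had 56.3 and 72.6 TPM (64.4 ± 11.5).

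Ordered by mean level, the members ran Ctnnb1, Ctnna1, Cdh2, Pkp2, Jup, Dsp, Dsc2, Tjp1, Dsg2 and Ctnna3. The values of neighbours did not overlap from Cdh2 down to Dsc2, nor between Ctnnb1 and Ctnna1. They overlapped between Ctnna1 and Cdh2, and at each step from Dsc2 through Tjp1 and Dsg2 to Ctnna3. The order of these neighbours was therefore not resolved, although Dsc2 lay wholly above Dsg2 and Ctnna3. Within each library Ctnna1 lay above Cdh2, and Dsc2 above Tjp1. Tjp1 against Dsg2, and Dsg2 against Ctnna3, changed order between the libraries. The strand setting is not given in the sources used here, so reads of overlapping opposite-strand genes cannot be told apart. Among those sharing exon positions with a member, Ulk4 at Ctnnb1 had 142.2 and 76.5 counts, Lrrtm2 at Ctnna1 had 146 and 109, Gm10129 at Dsp had 13.1 and 14.2, and Gm16090 at Dsg2 had 4.35 and 8.91. Opposite Ctnna3 (1285 and 846 counts), Gm10118 had 175 and 64 counts and Lrrtm3 had 68 and 44, with no exon of either overlapping an exon of Ctnna3.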

How the data were processed

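Total RNA of 2 libraries of embryonic day 11.5 mouse heart was analysed from gene and transcript tables. Per the file headers, the authors deposited expected counts (estimated reads, not normalized, split where reads were shared), TPM, posterior means of both with credibility bounds and effective lengths in bases, and the percent of each gene's TPM in each transcript. The deposited README texts name mm10 and annotation M4; no aligner, quantifier or strand setting is given in the sources used here. TPM is scaled over all rows, spike-in rows and rows named only by a number included, which lowers each mouse gene alike. Rows outside mouse genes held 8.43% and 8.61% of counts and stayed out of library sizes.

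Symbols, coordinates and transcript structures were taken from GENCODE M21 on the same assembly, matching 98.0% of mouse genes. Levels are mean and SD of TPM over 2 libraries. Genes were called apart when their values in the libraries did not overlap. For ratios between libraries, expected counts were rounded, 0.5 was added, and TMM effective sizes came from edgeR 4.0.16 in R 4.3.3 (DESeq2 1.42.0 size factors as an alternative); intervals are exact Clopper-Pearson at 95% and cover counting error only. On simulated libraries of 16621 genes with counting noise, the 1.5-fold rule found 198 of 200 genes changed 3-fold in the right direction and 685 unchanged genes. Changes near 1.5-fold were not simulated, so their recovery is not known. In the real libraries 2415 genes were past that fold, so counting noise alone does not describe their spread. Likeness of pattern to other genes was not computed, since 2 libraries give none. Python 3.11.15, pandas 2.3.3 and scipy 1.17.1 were used. The members, gene lists and pairs (all members, then every listed gene or the 4 highest of a list) were chosen with earlier results of these data known. Some listed genes are not reported here and were left out of the list counts, medians and pairs.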

Additional observations from a re-analysis of the deposited data

How the results depend on the processing

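All 10 members stayed at 1 TPM or more under every setting tried, the 5 TPM threshold included. The median of 45.8 TPM was 54.9 over mouse genes only, 63.5 without globin, mitochondrial and ribosomal DNA locus genes, and 44.0 with protein-coding transcripts only; the single libraries gave 45.1 to 46.5. With coding transcripts only, an alternative chosen after seeing the data, the Ctnna3 share of alpha-catenin TPM was 5.96% (single libraries, all transcripts, 7.95 to 10.3%) and the Jup share 17.0%. The Jup share was 17.9% with posterior mean TPM and 15.9% from counts without length, and the desmosomal share 24.6% from such counts. Members past the fold numbered 2 at the lower fold tried, Tjp1 and Dsg2 (1.30-fold), where 30.7% of genes were. Of 75 settings over 15 pairs, 74 kept their sign, but 18 of these moved by at least the SD between the libraries. Settings that leave out 1 library cannot move by this measure. Neither these nor the added 1 TPM could change a sign, because the values of each pair did not overlap. Such settings therefore do not test the direction of the pairs. The log2 ratio of Pkp2 over Pkp3, 6.69 in the main setting, was 5.44 with posterior mean TPM and 7.72 from counts without length. That of Dsg2 over Dsg3, 7.35 in the main setting, was 3.84 with 1 TPM added. That of Dsc2 over Dsg2, 0.58, was 0.19 from counts without length. The sign changed only for Pkp2 over Dsp, with a log2 ratio of -0.51 from counts without length. That setting leaves out the correction for length, and effective lengths were 8445 and 8578 bases for Dsp against 2794 and 2803 for Pkp2. The leading transcript matched for 9 to 10 members in single libraries. No paired analysis was possible because there is 1 group.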

Other observations

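Relatives of Tjp1 that seal epithelia were low in these hearts. Of 7 tight junction genes 6 reached 1 TPM in both libraries, but the median was 1.48 TPM in either library. F11r, an adhesion receptor also found on platelets and endothelium, stood apart at 47.2 TPM in replicate 1 and 48.8 in replicate 2, and the endothelial claudin Cldn5 had 4.85 and 3.25 TPM. Ocln was at 1.21 and 1.06 TPM, Marveld2 at 2.18 and 2.88, and Cldn1 at 1.00 and 1.48.

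Transcripts not annotated as protein-coding took unequal shares of the members. They held 36.9% ± 3.37 of Ctnna3 and 19.6% ± 9.16 of Tjp1, but 8.25% ± 2.28 of Cdh2, 6.67% ± 1.05 of Pkp2 and 6.51% ± 3.24 of Jup, and none of the TPM of Dsp, Dsg2 or Ctnna1.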
